A study of Mus musculus with 7 samples.

Results

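The voltage-gated calcium channel alpha-1 subunits are the pore-forming proteins of the channels through which depolarised neurons take up calcium. The 8 genes described here (Cacna1a, Cacna1b, Cacna1c, Cacna1d, Cacna1e, Cacna1g, Cacna1h and Cacna1i) were chosen by name, for the presynaptic channels that cannabinoid receptor CB1 acts on and for the L and T types. They are 8 of the 22248 genes in the deposited gene table, and their 99 transcripts are among 102392 in the transcript table. All 8 passed the filter on low counts.

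RNA came from synaptoneurosomes of the hippocampus, a fraction of resealed nerve endings that keep part of the postsynaptic side. All mice were female, wild-type and of strain C57Bl/6J, and no allele or transgene was used. The AM6545 group received AM6545, a CB1 antagonist with poor entry into the brain, sub-chronically (4 libraries, replicates B, D, E and F), and the Vehicle group received vehicle (3 libraries, replicates B, D and E). Age, dose, duration and the number of mice in a library are not given in the sources used here, and nothing says that the replicates are separate animals, so p-values measure only the spread between these libraries, which may be technical. Fewer particles of one kind and less RNA in each cannot be told apart in such bulk samples.

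An alpha-1 subunit is one long chain of 4 homologous repeats, and each repeat puts an acidic residue into the ring that selects calcium. The Cav2 channels, encoded by Cacna1a (P/Q type), Cacna1b (N type) and Cacna1e (R type), open calcium entry for transmitter release, and G beta gamma released by Gi/o-coupled receptors such as CB1 inhibits the N and P/Q types. The Cav1 or L-type channels Cacna1c and Cacna1d couple dendritic and somatic calcium to signalling to the nucleus, and the Cav3 or T-type channels Cacna1g, Cacna1h and Cacna1i open at more negative voltages and shape bursting and rebound firing.

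The stretch around the filter position of the fourth repeat is shown for the 8 genes because it separates the T type from the others. It was read from GENCODE M21 transcripts (GRCm38), 5′ to 3′ on the coding strand. Capitals mark the codon of the filter position, which encodes glutamate (GAA or GAG) in Cav1 and Cav2 and aspartate (GAC or GAT) in Cav3.
Cacna1a: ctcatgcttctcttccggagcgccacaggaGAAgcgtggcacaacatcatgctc
Cacna1b: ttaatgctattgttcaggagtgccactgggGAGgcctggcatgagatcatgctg
Cacna1e: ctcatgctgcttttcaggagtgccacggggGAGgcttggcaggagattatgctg
Cacna1c: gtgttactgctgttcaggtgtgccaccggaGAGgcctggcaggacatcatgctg
Cacna1d: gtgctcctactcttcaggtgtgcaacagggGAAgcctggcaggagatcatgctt
Cacna1g: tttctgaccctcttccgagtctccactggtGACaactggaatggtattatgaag
Cacna1h: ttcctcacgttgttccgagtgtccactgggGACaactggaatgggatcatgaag
Cacna1i: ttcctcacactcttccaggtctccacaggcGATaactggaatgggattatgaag

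Each stretch is 54 bases long and coding. In the 3 T-type genes it lies within exon 31, at chr11:94416406-94416459 (minus strand) for Cacna1g, chr17:25377762-25377815 (minus strand) for Cacna1h and chr15:80388467-80388520 (plus strand) for Cacna1i. In the other 5 it spans 2 exons, at chr8:84602023-84611634 in Cacna1a (plus strand), chr2:24635204-24637442 in Cacna1b, chr1:154425966-154426542 in Cacna1e, chr6:118614041-118624383 in Cacna1c and chr14:30075935-30077695 in Cacna1d (all minus strand). Base identity was 83.3% between Cacna1g and Cacna1h, 81.5% between Cacna1c and Cacna1d, and 53.7% between Cacna1a and Cacna1g.

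The libraries held 19174650 to 25894730 estimated counts each. Vehicle replicate B stood apart from the other libraries: on the first principal component, which held 34.3% of the variance, it was at 41.1 and the other 6 libraries lay between -21.7 and 11.5. Its share of counts from mitochondrially encoded genes was 9.83%, against 5.07% to 6.66% in the other 6. The fraction carried the neuronal marker lists: the summed level of 5 excitatory neuron markers (Slc17a7, Camk2a and others) was 2652 to 2875 CPM (counts per 1000000 counts, after scaling of the libraries) with AM6545 and 2727 to 2975 CPM with vehicle, and markers of oligodendrocytes, astrocytes and microglia were also well above 0.

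The first comparison asked whether the mRNA of each alpha-1 gene differed between AM6545 and vehicle. All 8 fold changes were below 0, with a median log2 fold change of -0.41 against 0.01 over the 14654 genes tested, of which 48.6% were below 0. No member passed the test: 0 of 8 had an adjusted p under 0.05 by edgeR's quasi-likelihood test, where 0.00682% of all genes did. At an unadjusted edgeR p under 0.05, 6 of 8 members were lower, against 8.7% of all genes. In 3 of 8 (Cacna1a, Cacna1g and Cacna1h) every AM6545 library lay below every vehicle library, against 7.19% of all genes.

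Among the Cav2 genes, Cacna1a, the pore of the P/Q-type channel that triggers release at many central synapses, was at 46.0, 35.1 and 37.7 CPM in vehicle B, D and E and at 26.0, 30.0, 29.6 and 32.8 CPM in AM6545 B, D, E and F. The groups did not overlap. The log2 fold change was -0.42 (SE 0.12, 95% interval -0.68 to -0.16), and the edgeR adjusted p was 0.212.

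Cacna1b, the N-type pore, is a channel closely tied to inhibition of release by Gi/o-coupled receptors. It was at 34.3, 22.8 and 17.6 CPM in vehicle B, D and E, and at 15.5, 17.2, 19.0 and 20.2 CPM in AM6545 B, D, E and F. Vehicle B stood above all others and vehicle E lay within the AM6545 range. The log2 fold change was -0.48 (SE 0.19, interval -0.90 to -0.05; edgeR adjusted p = 0.305).

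Cacna1e, the R-type pore found at nerve endings and spines, had the most counts of the 8. Vehicle B, D and E gave 85.2, 67.6 and 72.4 CPM, and AM6545 B, D, E and F gave 59.7, 66.9, 67.5 and 69.3 CPM. Only vehicle B and AM6545 B stood away from a common range. Its log2 fold change was the smallest of the 8, -0.19 (SE 0.11), with an interval of -0.42 to 0.04 that includes 0 (edgeR adjusted p = 0.426).

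Of the L-type genes, Cacna1c, the main L-type pore of brain, was at 33.9, 23.1 and 18.4 CPM in the vehicle libraries B, D and E. AM6545 B, D, E and F gave 16.2, 20.2, 18.4 and 22.4 CPM. The groups overlapped, with vehicle E among the AM6545 libraries, and the log2 fold change of -0.38 (SE 0.19) had an interval of -0.79 to 0.02 (edgeR adjusted p = 0.370).

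Cacna1d, the L-type pore that opens at lower voltages, was at 14.2, 11.1 and 13.5 CPM in vehicle B, D and E and at 8.87, 12.1, 9.74 and 10.2 CPM in AM6545 B, D, E and F. AM6545 D was higher than vehicle D, so the groups overlapped. The log2 fold change was -0.33 (SE 0.14, interval -0.64 to -0.03; edgeR adjusted p = 0.315).

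The T-type genes had the largest median difference of the 3 classes, -0.58, against -0.42 for Cav2 and -0.36 for Cav1. Each class holds only 2 or 3 genes, and the T-type genes have more GC (58.1% to 60.0%) than the Cav1 genes (48.8% and 50.3%). With the correction for GC content and length described below, the T-type genes ran from -0.51 to -0.14. The Cav1 genes were then at -0.47 and -0.17. Cacna1g was at 22.4, 15.9 and 14.5 CPM in vehicle B, D and E and at 11.4, 11.6, 11.7 and 12.6 CPM in AM6545 B, D, E and F. The 4 AM6545 libraries were close together and all below vehicle. The log2 fold change was -0.58, or 1.49-fold lower (SE 0.15, interval -0.89 to -0.26; edgeR adjusted p = 0.199).

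Cacna1h, a T-type pore also known from sensory neurons, was at 41.1, 34.7 and 34.9 CPM in vehicle B, D and E. In AM6545 B, D, E and F it was at 26.3, 29.0, 26.2 and 29.8 CPM. No AM6545 library reached a vehicle library. The log2 fold change was -0.41 (SE 0.10, interval -0.64 to -0.18), with the smallest standard error of the 8 and an edgeR adjusted p of 0.199.

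Cacna1i, the T-type pore with the slowest gating, had the largest fold change and the widest spread. It was at 27.1, 14.4 and 10.4 CPM in vehicle B, D and E and at 8.82, 10.3, 8.80 and 10.9 CPM in AM6545 B, D, E and F. Vehicle E lay below AM6545 F. The log2 fold change was -0.84 (SE 0.27, interval -1.43 to -0.24; edgeR adjusted p = 0.245).

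**Figure D1:**
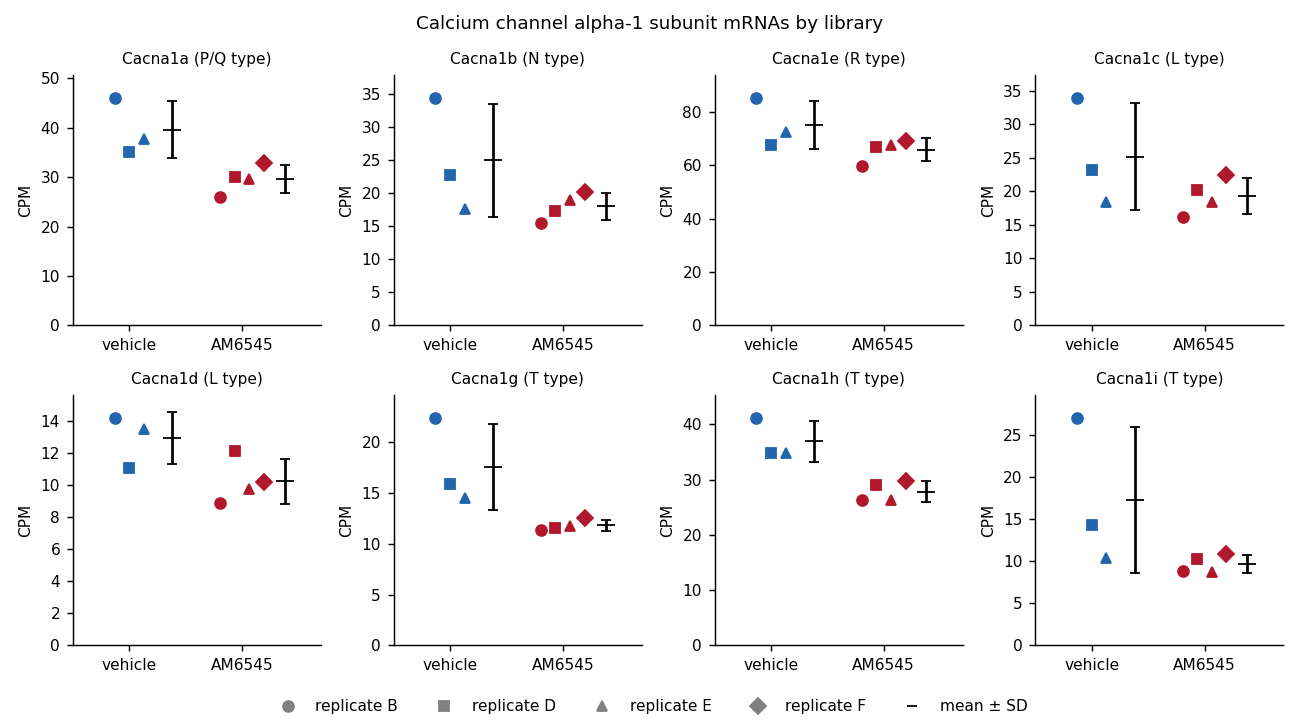
CPM (vertical axis, from 0) of the 8 alpha-1 genes in the 3 vehicle (blue) and 4 AM6545 (red) libraries; each point is 1 library, its shape the replicate letter, and the bar is the mean ± SD. Vehicle replicate B is the highest library in all 8 panels, and the groups do not overlap for Cacna1a, Cacna1g and Cacna1h.

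A single library had much weight in these differences. Vehicle B was the highest of the 7 libraries for all 8 genes, while AM6545 B was the lowest for 6 and AM6545 E for the other 2. Without vehicle B the fold changes were still below 0 for all 8 genes but smaller, with a median of -0.27. In that fit 4 of 8 members had an unadjusted edgeR p under 0.05 and lower values, against 3.69% of all genes, and adjusted p ranged from 0.644 to 0.937.

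By gene, the log2 fold change without vehicle B was -0.29 for Cacna1a, -0.17 for Cacna1b, -0.11 for Cacna1c, -0.25 for Cacna1d and -0.08 for Cacna1e. For the T-type genes it was -0.36 for Cacna1g, -0.32 for Cacna1h and -0.35 for Cacna1i. For Cacna1b, Cacna1c, Cacna1e and Cacna1i the log2 value was thus less than 0.5 times that with all libraries.

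Calls also turned on vehicle E, the vehicle library closest to the AM6545 group on the first principal component (at -6.03). For Cacna1a, Cacna1d, Cacna1e and Cacna1h, vehicle D was lower than vehicle E. Without vehicle E, Cacna1b (log2 fold change -0.67, edgeR adjusted p = 0.0313), Cacna1g (-0.69, 0.0243), Cacna1h (-0.45, 0.0392) and Cacna1i (-1.09, 0.0243) passed the test. In that fit 4.07% of all genes were called lower. With all 7 libraries, DESeq2 called Cacna1g (adjusted p = 0.0439) and Cacna1h (0.0447), where it called 1.21% of genes lower, and limma-voom with library weights called Cacna1g alone (0.0421), where it called 1.79% lower.

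GC content moved with the comparison. Over all genes the median log2 fold change went from 0.15 in the most GC-poor decile to -0.17 in the most GC-rich one, and the slope of log2 expression on GC, per 10 percentage points, was -0.065 ± 0.041 in AM6545 (SD, n = 4) and 0.087 ± 0.043 in vehicle (n = 3). Cacna1a (58.4% GC), Cacna1g (58.1%), Cacna1h (60.0%) and Cacna1i (59.3%) belong to the 2 highest deciles, whose medians were -0.10 and -0.17. Cacna1e (48.3%), Cacna1d (48.8%, from a retained-intron transcript), Cacna1c (50.3%) and Cacna1b (52.9%) lie in the middle, where medians ran from 0.07 to -0.03, and were lower than those medians as well.

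With a correction of each library for its trends on GC content and transcript length, all 8 fold changes remained below 0, at a median of -0.24. Cacna1i was at -0.51, Cacna1d at -0.47, Cacna1g at -0.35, Cacna1b at -0.28, Cacna1a at -0.19, Cacna1c at -0.17 and Cacna1h at -0.14. Cacna1e was at -0.0036, and Cacna1d alone was further from 0 than without the correction. The length used was that of the most counted transcript, 14921 bases for Cacna1e. For Cacna1d it was the retained-intron form of 3503 bases, where the coding form Cacna1d-201 has 8068, so its corrected value rests on that length. The parts of GC content and of length in these shifts were not tested. Unadjusted edgeR p was under 0.05 for 3 of 8 members, against 4.5% of all genes lower at that level, and adjusted p was 0.717 or higher.

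**Figure D2:**
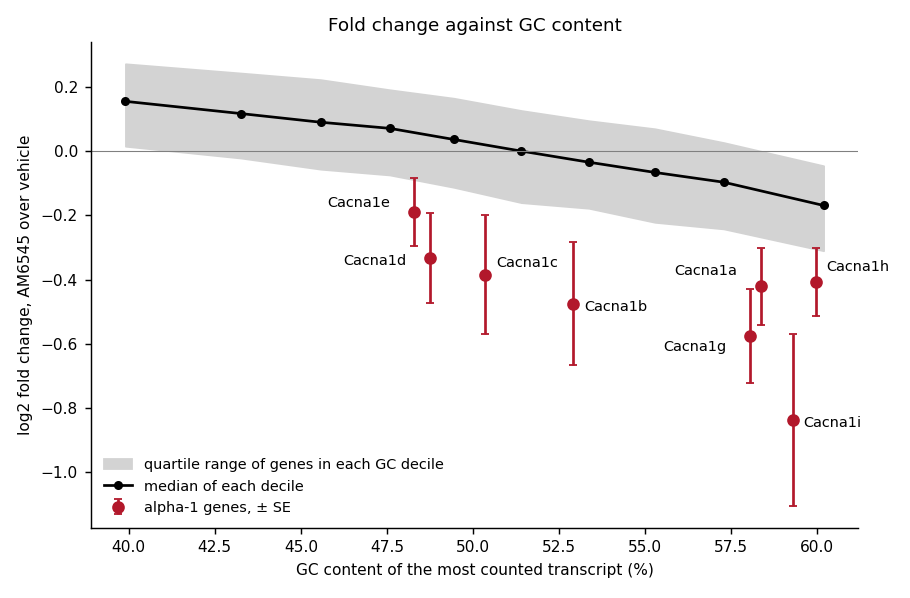
Log2 fold change of AM6545 over vehicle (vertical axis) against the GC content in percent of each gene's most counted transcript (horizontal axis); the line and band are the median and the quartile range of genes in each decile of GC content, and red points are the alpha-1 genes ± SE. The line goes from 0.15 to -0.17, and all 8 points lie below it.

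**Figure D3:**
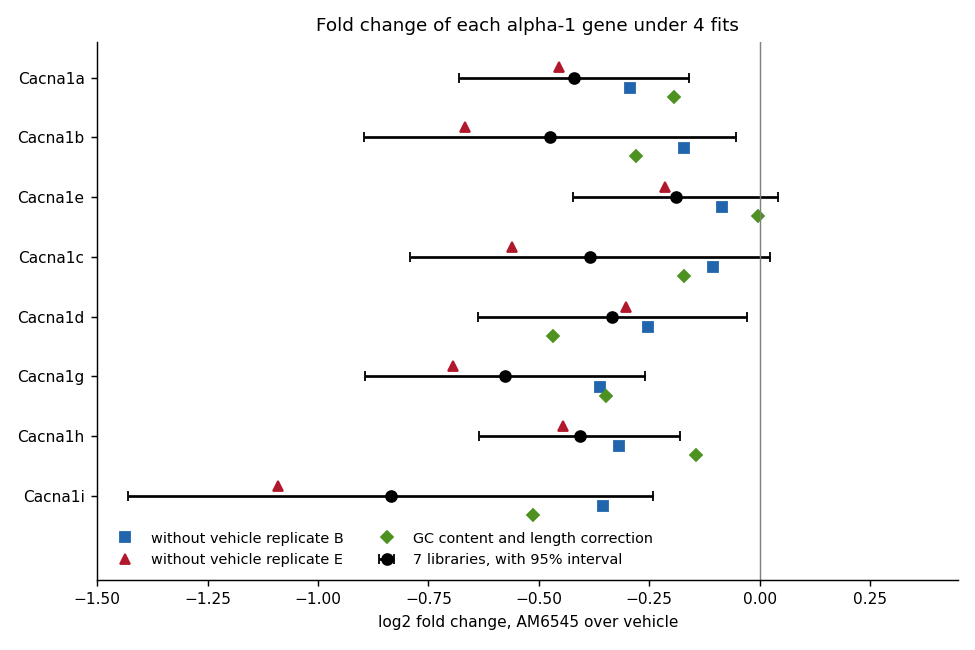
Log2 fold change of AM6545 over vehicle (horizontal axis) for each alpha-1 gene with all 7 libraries (black, with the 95% interval), without vehicle B, without vehicle E, and with the GC content and length correction. Values without vehicle E lie further from 0 than those without vehicle B for all 8 genes, and Cacna1e is at -0.0036 with the correction.

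Markers of other cell types moved in part with the groups. Of 7 microglia markers 5 were lower and 4 were lower without overlap (C1qa, C1qb, C1qc and Tmem119), against 7.19% of all genes, with summed levels of 708 to 752 CPM in AM6545 and 721 to 962 CPM in vehicle. The other 3 microglia markers were near 0 on the log2 fold change scale, Csf1r at -0.04, Cx3cr1 at 0.04 and P2ry12 at 0.07. The 4 without overlap had a GC content of 57.4% to 59.5%, in a range where the median gene was also lower. Csf1r had 53.9%, Cx3cr1 50.2% and P2ry12 38.5%. The 5 thalamus markers were all lower, at 85.0 to 117 CPM in AM6545 and 96.9 to 127 CPM in vehicle. The 6 choroid plexus markers were all lower too, at 1042 to 5111 and 3236 to 5005 CPM. In both lists 0 genes lay without overlap and 0 had an unadjusted edgeR p under 0.05. Of 6 astrocyte markers 2 were lower and 4 higher, and only Slc1a2 (-0.45, 45.3% GC) was lower without overlap. Of 6 interneuron markers 4 were lower and 2 higher, and only Sst (-0.41, 56.0% GC) was lower without overlap. Of 6 smooth muscle and pericyte markers, cells that also use L-type and T-type channels, 5 were higher, at 32.3 to 46.2 CPM in AM6545 and 29.1 to 33.1 CPM in vehicle. No marker of these lists was at 0 in any library, each summed range overlapped between the groups, and their part in the alpha-1 differences was not tested.

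The second comparison was among the alpha-1 genes themselves. Since their transcripts differ in length, levels were put on a per-length scale, as TPM (transcripts per 1000000 transcripts), from each gene's counts and the length of its counted transcripts. Over all 7 libraries the levels (mean ± SD, n = 7) were 20.2 ± 2.75 TPM for Cacna1a, 9.00 ± 0.579 for Cacna1e, 8.98 ± 1.07 for Cacna1h, 5.85 ± 0.757 for Cacna1d, 4.99 ± 1.03 for Cacna1g, 4.14 ± 0.984 for Cacna1b, 4.12 ± 0.861 for Cacna1c and 2.53 ± 1.05 for Cacna1i.

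Of the 7 pairs of neighbours in that order, 4 differed by a paired two-sided exact sign-flip permutation test (adjusted p = 0.0273 over the 7 pairs, from the smallest p that 7 libraries allow, 0.0156). These were Cacna1a over Cacna1e, Cacna1h over Cacna1d, Cacna1g over Cacna1b and Cacna1c over Cacna1i, each in 7 of 7 libraries. Cacna1e and Cacna1h (exact permutation test, adjusted p = 0.891, mean log2 difference 0.01 ± 0.13 SD), Cacna1d and Cacna1g (0.0656) and Cacna1b and Cacna1c (0.891) did not differ beyond the spread.

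This order rests on the annotated lengths. Only 42.8% of the Cacna1a counts belong to transcripts matched by identifier to GENCODE M21, and some of these are short, which gave it a length of 3140 bases and raised its level; for Cacna1d the most counted transcript is a retained-intron form of 3503 bases. Scaled by the longest annotated transcript, Cacna1a was at 9.90 ± 1.31 TPM, below Cacna1e at 10.9 ± 0.664, and Cacna1d went from the fourth place to the last at 2.73 ± 0.349. Scaled by the mean annotated length, Cacna1a was at 16.8 ± 2.57 TPM and Cacna1e at 16.2 ± 1.27.

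Of the 4 pairs called different, only Cacna1h over Cacna1d had 1 direction under all 3 lengths, in 7 of 7 libraries each. Cacna1a was above Cacna1e in 1 of 7 libraries with the longest transcript and in 4 of 7 with the mean length. Cacna1g was below Cacna1b in 7 of 7 libraries with either of these lengths, at 3.93 against 4.96 TPM and 3.30 against 6.70 TPM. Cacna1c was above Cacna1i in 6 of 7 libraries with the longest transcript but below it in 7 of 7 with the mean length, at 4.58 against 5.80 TPM. Cacna1a, Cacna1e and Cacna1h held the first 3 places under all 3 lengths.

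**Figure D4:**
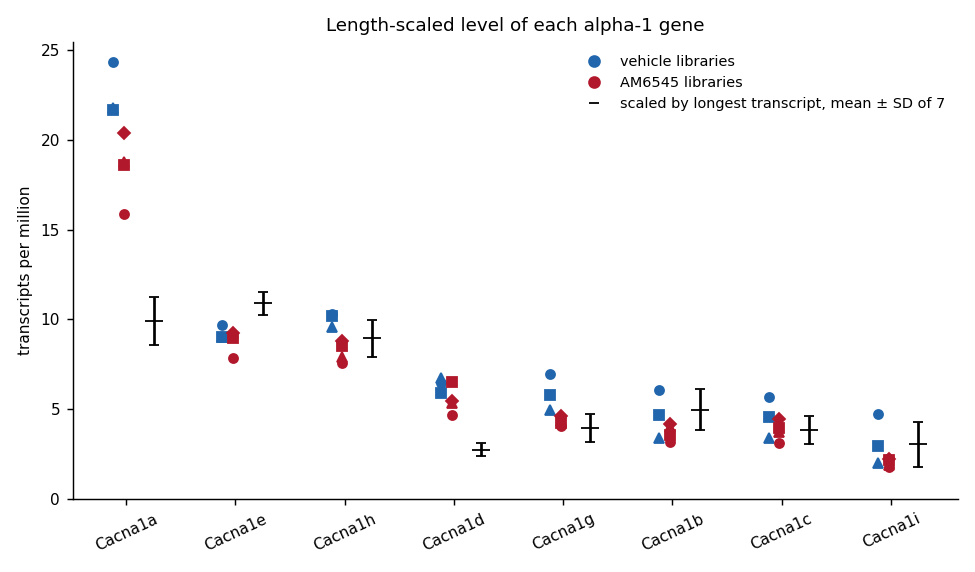
Level in TPM (vertical axis, from 0) of each alpha-1 gene in the vehicle (blue) and AM6545 (red) libraries, scaled by the length of the counted transcripts, with marker shapes as the replicate letters; black bars are the mean ± SD of 7 libraries scaled by the longest transcript. Cacna1a and Cacna1d change most between these 2 scalings, from 20.2 to 9.90 and from 5.85 to 2.73.

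The shares of the 3 classes in the alpha-1 pool overlapped between the groups. Cav2 genes made up 56.5% ± 1.31 of the summed per-length level in AM6545 (SD, n = 4) and 55.0% ± 1.17 in vehicle (n = 3). Cav1 made up 16.9% ± 1.08 and 16.4% ± 0.234, and Cav3 26.6% ± 1.02 and 28.7% ± 1.34. Of single genes, Cacna1e took 15.6% to 16.7% of the pool in AM6545 and 13.1% to 14.8% in vehicle, without overlap, and the shares of the other genes overlapped. This restates its fold change, the smallest of the 8 at -0.19 on the log2 scale, and is not a separate result. The shares were not corrected for GC content, and Cacna1e has the lowest GC of the 8, 48.3%. The sum itself was 54.7 ± 4.79 TPM in AM6545 and 66.6 ± 6.92 TPM in vehicle, also without overlap (highest AM6545 library 59.3, lowest vehicle library 60.8).

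These shares depend on the lengths too. With the longest transcript Cacna1e took 23.4% to 25.01% of the pool in AM6545 and 19.3% to 22.8% in vehicle, and with the mean length 23.8% to 25.5% and 19.7% to 23.2%, again without overlap. The class shares overlapped between groups with either length, Cav3 only by a small margin. With the longest transcript Cav3 took 30.3% to 33.11% in AM6545 and 33.10% to 35.3% in vehicle. With the mean length it took 30.0% to 32.8% and 32.6% to 35.6%. The sum overlapped with the longest transcript (highest AM6545 library 48.2 TPM, lowest vehicle library 47.8 TPM) and, by a small margin, not with the mean length (69.4 and 69.6 TPM).

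Within the set, profiles over the 7 libraries were closest for Cacna1a and Cacna1h, whose log2 CPM, each centred on its mean, differed by a root mean square of 0.069. Cacna1b and Cacna1c came next at 0.087, and Cacna1e and Cacna1i were furthest apart at 0.41. Among all other tested genes, the closest profile was that of Rpp21 for Cacna1a (root mean square 0.031), Selenot for Cacna1b (0.050), and Col4a2 for Cacna1d (0.058). It was Pcdh17 for Cacna1e (0.028), Ndufb1-ps for Cacna1g (0.040), Bola1 for Cacna1h (0.035) and Camk2n2 for Cacna1i (0.054). These 7 genes also had their maximum in vehicle B, which follows from choosing them by closeness to the members' profiles.

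The third comparison was between transcripts. Of the 99 member transcripts 43 were at 0 in all libraries and 24 passed the filter. By edgeR 0 of 24 had an adjusted p under 0.05, against 0.0177% of all transcripts. In simulated data with planted log2 changes of 1 and 2, this test found 13.4% and 31.1% of the transcript changes. For genes edgeR found 84.4% and 100% of them. The largest member gene change, that of Cacna1i, was -0.84, and recovery of changes smaller than 1 was not tested. The 0 of 24 therefore does not show that these transcripts were unchanged, nor does the 0 of 8 show it for the genes. At an unadjusted p under 0.05 there were 2 of 24, against 8.39% of all transcripts. These were Cacna1h-205 (log2 fold change -0.40, SE 0.11, adjusted p = 0.559) and Cacna1i-202 (-0.83, SE 0.31, adjusted p = 0.569), the forms that held 92.0% and 99.8% of their genes' transcript counts. Cacna1e-203 held 99.4%, Cacna1c-207 90.3% and Cacna1b-204 74.7%. The share of Cacna1b-204 ran from 55.8% in vehicle B to 96.0% in AM6545 B, and its log2 fold change was -0.27 (SE 0.17), against -0.48 for the gene.

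For Cacna1g and Cacna1b an alternative coding exon divides the counted transcripts, so it is shown. The first lies at chr11:94439709-94439777 (69 bases, minus strand, exon 14 of Cacna1g-203), the second at chr2:24618255-24618362 (108 bases, minus strand, exon 40 of Cacna1b-204). Both are from GENCODE M21, 5′ to 3′.
Cacna1g exon: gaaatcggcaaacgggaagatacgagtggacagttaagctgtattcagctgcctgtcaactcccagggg
Cacna1b exon: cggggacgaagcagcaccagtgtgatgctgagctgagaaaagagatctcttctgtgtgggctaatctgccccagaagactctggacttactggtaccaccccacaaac

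Cacna1g transcripts with its exon took 49.1%, 23.0% and 29.9% of the assigned counts in vehicle B, D and E and 28.9%, 100%, 100% and 32.1% in AM6545 B, D, E and F. AM6545 D and E stood far above the rest and the other AM6545 libraries lay within the vehicle range. In the same 2 libraries Cacna1g-205, which lacks the exon, was listed at 0 normalised counts, against 186 and 164 in AM6545 B and F and 265, 278 and 209 in vehicle B, D and E. Cacna1g-203, which has it, was at 169 and 107 in AM6545 D and E and at 0 in the other 5 libraries. These 2 forms share 34 exons and differ also in the length of another exon, 784 against 733 bases. The exon shares were summed from counts estimated per transcript, and reads over the exon itself were not counted, so they do not measure its inclusion directly.

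Cacna1b transcripts with its exon took 58.0%, 87.5% and 84.6% of the counts in vehicle B, D and E and 100%, 84.4%, 92.1% and 66.5% in AM6545 B, D, E and F. The groups overlapped. Of the forms that cover its place, 5 have the exon and 1, Cacna1b-202, lacks it.

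Counts of Cacna1a assigned to matched transcripts, 42.8% of its counts, switched between forms in the same way. The counts of its unmatched transcripts are not part of this comparison. Cacna1a-201 was at 271, 102 and 0 normalised counts in vehicle B, D and E and at 0, 264, 308 and 304 in AM6545 B, D, E and F. Cacna1a-211 was at 0, 189 and 415 in vehicle B, D and E and at 161, 0, 20.9 and 0 in AM6545 B, D, E and F. The 2 forms share 45 exons and differ in their first exon (580 and 160 bases) and in the length of 1 other exon, 93 against 90 bases.

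Their log2 fold changes were 0.81 (SE 1.69) and -2.14 (SE 2.09) and say little. A test of transcript usage within genes (edgeR's diffSpliceDGE) called 0 of the 6 member genes that could be tested, against 0.713% of all genes, with unadjusted p from 0.250 to 0.944 and adjusted p of 0.99998. In simulated transcripts with the spread of these libraries that test found few of the changes put in and most of its calls were false, so nothing is read from its result.

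**Figure D5:**
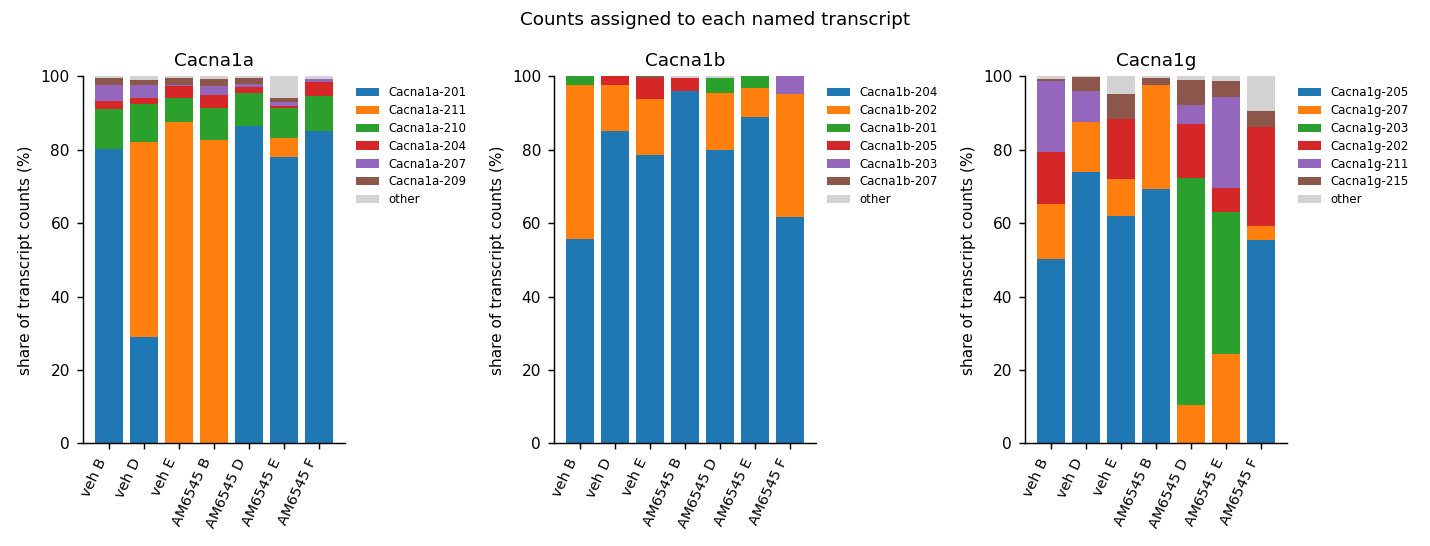
Share in percent (vertical axis) of the counts assigned to matched transcripts of Cacna1a, Cacna1b and Cacna1g in each library (horizontal axis, veh for vehicle), with the 6 most counted transcripts in colour and the others in grey. Cacna1a-201 and Cacna1a-211 replace each other between libraries of the same group, and Cacna1g-203 appears in AM6545 D and E only.

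The other genes of the pathway were read from lists. The auxiliary alpha2delta and beta subunits carry alpha-1 to the membrane and set its gating. Of these 8 genes 5 were lower and 3 higher, with a median log2 fold change of -0.05, and none passed the edgeR test after adjustment. Cacnb2, a beta subunit, was higher without overlap (log2 fold change 0.30, SE 0.11, edgeR adjusted p = 0.267). It was at 26.4, 32.01 and 32.1 CPM in vehicle B, D and E and 39.8, 34.2, 35.1 and 39.1 CPM in AM6545 B, D, E and F. It was the 1 of 8 higher without overlap, against 6.63% of all genes, and 0 of 8 were lower without overlap, against 7.19%. Cacnb2 has 46.3% GC, in a range where the median gene was also higher. Cacnb3 was at -0.19, Cacna2d2 at -0.32 and Cacna2d1, the receptor of gabapentin, at -0.15 on the log2 fold change scale. Against this list, the 8 alpha-1 genes had the lower median, -0.41, a description without a test.

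Of the gamma subunits, named for their likeness to a muscle channel subunit although most act on AMPA receptors, 7 of 8 were tested, with 5 lower, 2 higher and a median of -0.11. Cacng2 (stargazin) was at 50.6, 37.1 and 29.7 CPM in vehicle B, D and E and 24.3, 26.7, 27.6 and 28.1 CPM in AM6545 B, D, E and F. It did not overlap between groups (log2 fold change -0.56, SE 0.15, edgeR adjusted p = 0.205), and Cacng7, at or near 1 CPM, was at -0.63 (adjusted p = 0.343). These were the 2 of 7 that were lower without overlap, against 7.19% of all genes, while 0 of 7 were higher without overlap, against 6.63%. Cacng7 has 58.1% GC, in a range where the median gene was also lower, and Cacng2 has 51.2%.

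Active zone proteins hold Cav2 channels at release sites. Of 17 such genes 10 were lower and 7 higher, with a median of -0.06 and 0 passing after adjustment. Bsn, the scaffold bassoon, was at 183, 131 and 93.7 CPM in vehicle B, D and E and 91.6, 102, 87.4 and 111 CPM in AM6545 B, D, E and F (log2 fold change -0.47, edgeR adjusted p = 0.295). Bsn has 56.7% GC, in a range where the median gene was also lower. Erc2, another scaffold of the active zone, was at 0.22 (edgeR adjusted p = 0.307) and Snap25 at 0.21 (0.365), both higher without overlap. They were 2 of 17, against 6.63% of all genes, while 0 of 17 were lower without overlap, against 7.19%. Both have low GC content, 44.0% and 43.4%, in a range where the median gene was also higher.

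Gi/o alpha, G beta gamma and RGS proteins carry the signal from CB1 to the channels or end it. Of 15 genes 5 were lower and 10 higher, with a median of 0.10; 5 were higher without overlap, where 6.63% of all genes were, and 4 were higher at an unadjusted edgeR p under 0.05, where 5.86% of all genes were. Gnai3, a Gi alpha subunit, was at 28.9, 36.1 and 34.9 CPM in vehicle B, D and E and 46.2, 42.6, 45.1 and 41.7 CPM in AM6545 B, D, E and F (log2 fold change 0.40, SE 0.11, edgeR adjusted p = 0.199). Rgs4, which speeds the shut-off of Gi/o, was higher too (0.31, SE 0.09, adjusted p = 0.218). Both have low GC content, 41.7% and 44.0%, in a range where the median gene was also higher.

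Of 18 partners of L-type signalling 7 were lower and 11 higher, with a median of 0.10. Shank3, a postsynaptic scaffold that binds the L-type channel, was at 39.8, 25.9 and 18.3 CPM in vehicle B, D and E and 13.5, 18.0, 15.0 and 17.1 CPM in AM6545 B, D, E and F (log2 fold change -0.82, SE 0.22, edgeR adjusted p = 0.205). Stac2, an adaptor of L-type channels, was at -0.61 (SE 0.17, adjusted p = 0.200). Neither overlapped between groups, and both had their maximum in vehicle B, like the alpha-1 genes. They were the 2 of 18 that were lower without overlap, against 7.19% of all genes, while 3 of 18 were higher without overlap, against 6.63%. These were Akap5 (0.23, SE 0.10), an anchor of protein kinase A at the L-type channel, and the kinase subunits Prkacb (0.34, SE 0.11) and Prkar2b (0.37, SE 0.11), with edgeR adjusted p of 0.338, 0.245 and 0.231. Shank3 (62.4% GC) and Stac2 (58.1%) lie in a range of GC content where the median gene was also lower. Akap5 (44.0%), Prkacb (45.4%) and Prkar2b (44.1%) lie where it was higher.

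The values of several named partners also depended on vehicle B. Without it the log2 fold change of Cacng2 was -0.33, of Cacng7 -0.39, of Bsn -0.20, of Stac2 -0.37 and of Shank3 -0.48. That of Cacnb3 was -0.10 and that of Cacna2d1 -0.030. That of Cacna2d2 was -0.31. Among those that were higher, Cacnb2 was at 0.21, Erc2 at 0.19, Gnai3 at 0.31 and Rgs4 at 0.28.

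The RGK proteins bind beta subunits and inhibit the channels. Rrad was at -0.25 and Gem at 0.15, with standard errors of 0.28 each, and 0 of the 3 tested passed. Of the remaining alpha-1 genes, Cacna1s of skeletal muscle was at 0.42 to 0.87 CPM, with a log2 fold change of -0.43 (SE 0.34, edgeR adjusted p = 0.560). Cacna1f of retina had 9 counts in all 7 libraries together and was not tested. Nalcn, the sodium leak channel listed with them, was at 0.02 on the log2 fold change scale. Cnr1 itself was at 117, 92.2 and 86.5 CPM in vehicle B, D and E and 91.5, 108, 114 and 102 CPM in AM6545 B, D, E and F, with overlapping groups (log2 fold change 0.07, SE 0.12, edgeR adjusted p = 0.797).

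The use of strand in counting is not given in the sources used here. Exons of another gene on the opposite strand cover 3.81% of the exon bases of Cacna1a, 4.67% of Cacna1d and 1.62% of Cacna1h in GENCODE M21, and none of the other 5 members. Among the named partners the covered share was 7.32% for Cacnb2, 5.86% for Cacng2, 8.94% for Rrad, 19.99% for Cacna1s, 2.95% for Shank3, 1.09% for Erc2 and 1.03% for Cacna2d2, and reads of such pairs may be mixed.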

How the data were processed

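Per the labels, total RNA of synaptoneurosomes was extracted by RNeasy mini kit, and libraries were made by SMARTer Ultra Low Input kit. The authors deposited estimated counts per gene and per transcript, 1 column for each of 7 libraries; 83.5% of gene values above 0 are not whole. The submitters' processing notes name Salmon 1.5.2 and mm10, with no role given; the annotation release and the summarising of transcripts to genes are not given in the sources used here. Names, lengths, GC content and sequences came from GENCODE M21 (GRCm38); 22148 gene and 101527 transcript identifiers matched without their versions.

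Estimated counts were rounded and tested with edgeR 4.0.16 (quasi-likelihood test, TMM scaling, filterByExpr; limma 3.58.1, R 4.3.3) on the whole tables, AM6545 against vehicle, with Benjamini-Hochberg adjustment over all features and a threshold of 0.05. CPM values use TMM-scaled totals. Alternatives were DESeq2 1.42.0, limma-voom, other scalings and filters, a correction for GC content and length (lowess), the replicate letter as a block, and each library left out. Levels per length used pooled lengths of matched transcripts. The scripts were tested on simulated data.

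The members and lists were chosen with earlier results of these data known. The genes named are all 8 alpha-1 genes, for each its most counted transcript and that with the smallest p, the 2 genes of each list with the smallest p (4 of the alpha2delta and beta list), for each member the gene with the closest profile (that of Cacna1c is not reported here), and Cnr1. Transcripts with the alternative exons, the microglia genes, Slc1a2, Sst, Snap25, Akap5, Prkacb and Prkar2b were named after their values were seen. Library totals were 19174650 to 25894730 counts, and the biological coefficient of variation between libraries was 12.4%.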

Additional observations from a re-analysis of the deposited data

Results flagged for a closer look

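Of 44 values compared among the 4 AM6545 libraries, 4 had a single library far from the other 3, where chance flags about 1 in 20 groups, or 2.2 here. Cacna1s was at 0.763 CPM in AM6545 D against 0.422 to 0.476 in the others. Cacna2d2 was at 3.80 CPM in AM6545 F against 5.04 to 5.22. Cacna1a-201 was at 0 normalised counts in AM6545 B against 264 to 308, and Cacna1a-211 was at 161 there against 0 to 20.9. This is the switch between near-identical forms described above, read from the 42.8% of Cacna1a counts in matched transcripts.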

How the results depend on the processing

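The 8 alpha-1 fold changes were below 0 under all 18 settings. The count of alpha-1 genes called was 0 with edgeR, 2 with DESeq2 and 1 with limma-voom, and ranged from 0 to 4 when each library was left out (4 without vehicle E); the cause was not tested. Over all genes edgeR called 1 gene, DESeq2 205, limma-voom 394, the fit without vehicle E 944 and that without vehicle B 0 (954 at an unadjusted p under 0.05). Same-letter libraries did not deviate together (r = -0.255 for B, -0.130 for D and -0.180 for E), so the letters were not taken to pair them; with the replicate block 0 alpha-1 genes were called, at adjusted p of 0.595 to 0.702, and 1 gene over the table. The number of neighbouring levels that differed was 4, and 0 to 5 with a library left out, 5 without vehicle B; with 6 libraries the smallest exact permutation p is 0.0312, and 5 of the 7 pairs must reach it to pass the adjustment. With all libraries, DESeq2 also called Stac2 (adjusted p = 0.0464) and Shank3 (0.0256), and limma-voom called Cacng2 (0.0375), Rgs4 (0.0421), Stac2 (0.0485) and Shank3 (0.0460). Without vehicle E, these and Bsn and Gnai3 passed in edgeR, at 0.0153 to 0.0477.

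Only uncalled genes changed sign. Nalcn was at -0.040 with limma-voom and -0.0071 with the GC content and length correction, and ranged from -0.094 (without AM6545 E) to 0.080 with a library left out. Rrad was at 0.054 with block and correction, and at -0.50 (without vehicle B) to 0.096 (without vehicle E). Gem was at -0.21 with limma-voom, -0.094 with the block and -0.19 with block and correction, and at -0.072 (without AM6545 F) to 0.33, with -0.0078 without vehicle B. Cnr1 was at -0.017 with the correction and -0.0051 with block and correction, and at -0.012 (without vehicle E) to 0.22 (without vehicle B).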
